A study of Mus musculus with 2 samples.

Results

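The polyamine enzymes described here are the 10 genes that make putrescine, spermidine and spermine, break them down or hold the pathway in check: *Odc1*, *Amd1*, *Amd2*, *Srm*, *Sms*, *Smox*, *Sat1*, *Oaz1*, *Azin1* and *Arg2*. Their probes were found on a whole mouse genome array by gene name, older names included. The rule used no measured value, but the set was proposed with earlier results of these data in view. The 10 genes had 19 probes, and 9 of them had signal in at least 1 channel of both arrays, out of 13595 genes measured in this way. Total RNA of gastrocnemius (GAS) muscle, a fast muscle of the calf, came from male mice 15 weeks old on a normal diet. Arrays after glucose injection and after fasting belong to the study, and the labels do not give the state of the mice behind these 2 arrays. Wild-type (WT) mice were compared with mice that lack GDE5 in skeletal muscle (*Gde5* skKO). GDE5, encoded by *Gde5* (*Gpcpd1*), splits glycerophosphocholine, and the methods describe a C57BL/6 floxed allele cut by Cre under the human skeletal actin promoter, which acts in muscle fibres and leaves the gene intact in the other cells of the tissue. The methods give floxed littermates without Cre as controls.

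Each of the 2 arrays held both genotypes, WT in Cy3 and *Gde5* skKO in Cy5 on array 1 and the dyes exchanged on array 2. The series design names 5 mice, and neither the labels nor the methods tell how many stand behind each channel or whether both arrays took the same RNA. Spread between the arrays may therefore be technical only. All ratios below are log2 of *Gde5* skKO over WT. A gene was called when the p-value of the array software was under 0.05 on both arrays with the same sign, and the brightest probe stood for its gene. That p speaks for a spot on an array, not for mice.

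Polyamines are small positively charged molecules that bind RNA and DNA and are needed for translation and growth. Ornithine decarboxylase (*Odc1*) makes putrescine, and S-adenosylmethionine decarboxylase (*Amd1*, *Amd2*) makes the aminopropyl donor with which spermidine synthase (*Srm*) and spermine synthase (*Sms*) lengthen it. Muscle polyamine synthesis is known to be under androgen control, and *Odc1* and *Amd1* are among the androgen-responsive genes of this tissue. Both decarboxylases are short-lived enzymes that are also regulated after transcription, so a transcript level is not an activity.

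The targeted gene was lower in the channel labelled *Gde5* skKO. On chromosome 2 of mm8, 3 of its 4 probes gave log2 ratios from -2.59 to -3.07 on array 1 and from -3.24 to -3.29 on array 2. The lowest value on each array came from a probe that was dim in *Gde5* skKO, at 91 and 87. With limma's background model and dye correction that probe gave -1.52 and -1.38. The fourth, at chr2:132256048-132256107, gave -0.05 and -0.47 and is the one that stands for the gene by mean brightness, so the mean for *Gde5* was -0.26 by that probe and -2.93 by the probe brightest in WT. The share of spots well above background ran from 44.6% to 53.2% over the 4 channels. In all, 236 of 13595 genes (1.74%) were called lower and 215 (1.58%) higher, and 215 were called when neither array was turned, which counts differences that follow the dye. The median ratio over all genes was 0.01 on array 1 and 0.02 on array 2. None of the 7 skeletal muscle markers was called, with a median mean ratio of -0.02. With so few of all genes called, that is no result about a list this short. The means of these markers ran from -0.34 (*Pvalb*) to 0.36 (*Mb*).

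Transcripts of S-adenosylmethionine decarboxylase fell in *Gde5* skKO muscle. The brightest *Amd1* probe, at chr10:39977032-39977091 on the minus strand, had a processed signal of 26899 in WT and 12785 in *Gde5* skKO on array 1. On array 2 the same probe read 25869 in WT and 11198 in *Gde5* skKO. Both *Gde5* skKO channels lay below both WT channels, whichever dye they carried. How many of all genes separate in this way was not counted, so it adds no weight to a call, here or below. The log2 ratios were -1.07 ± 0.23 and -1.21 ± 0.23 (error of the spot within its array), past the threshold on both. The mean was -1.14 ± 0.10 (SD, n = 2), so that *Gde5* skKO stood at 45.4% of WT.

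The *Amd2* probe behaved in the same way. It read 84441 in WT and 38508 in *Gde5* skKO on array 1, and 78336 and 39389 on array 2, again with no overlap between the genotypes. Its log2 ratios were -1.13 ± 0.23 and -0.99 ± 0.22, past the threshold on both, and the mean was -1.06 ± 0.10 (SD, n = 2), or 47.9% of WT. In limma's moderated test over both arrays the log2 ratio was -1.12 for *Amd1* (adjusted p = 0.0039) and -1.03 for *Amd2* (adjusted p = 0.0045). The plain two-group test that the methods name, which ignores the pairing of channels on an array, left neither gene past 0.05 after adjustment. By limma's adjusted p, 71 genes (0.522%) were lower over the whole array.

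The *Amd1* and *Amd2* values cannot be taken as separate measurements of 2 genes. The array annotation places the *Amd2* probe at chr10:39978784-39978843 on the minus strand, 826 bases from an *Amd1* probe, and all 3 probes lie within 1812 bases of the same strand on mm8. RefSeq, on a later build, lists *Amd1* and *Amd2* as genes at different places of chromosome 10. The proteins are near-identical and a probe may bind the transcript of either copy, so which of the 2 genes each signal came from is uncertain. The other *Amd1* probe, at chr10:39977898-39977957, was dim, reading 282 in WT and 142 in *Gde5* skKO on array 1 and 189 and 104 on array 2. Its ratios of -0.99 and -0.86 gave a mean of -0.93, which shrank to -0.40 with normexp, limma's background model, and loess, its dye correction, and to -0.45 with loess and no background correction. A probe for a similar predicted gene on chromosome 6, *LOC672434*, which was looked at after its values were seen, gave -1.10 and -0.96 and was called lower.

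**Figure D1:**
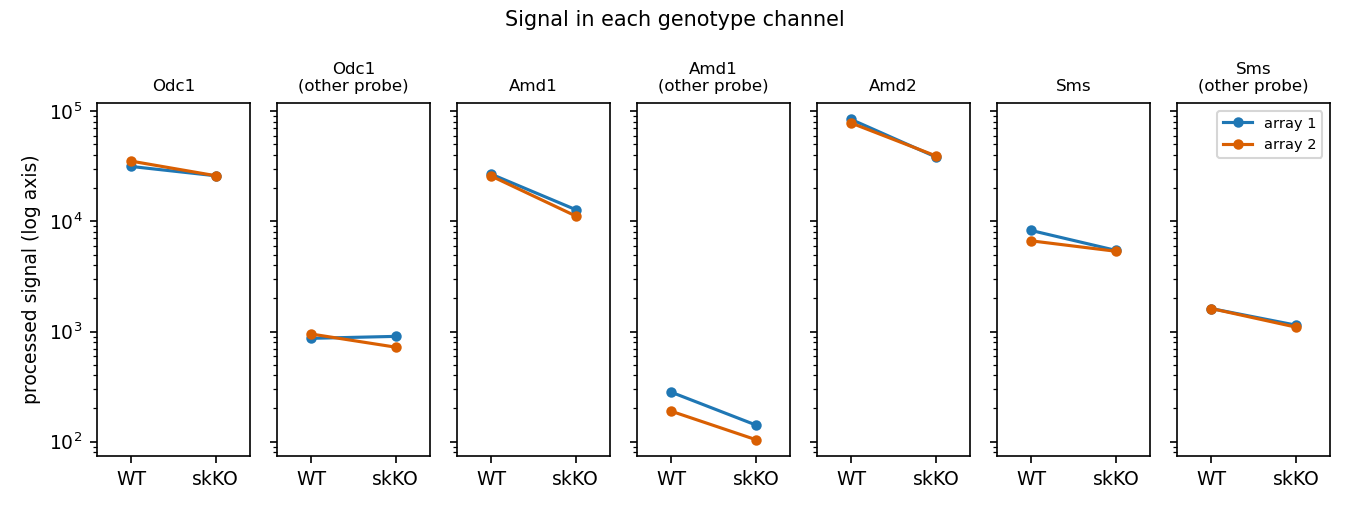
Processed signal (log axis) in the WT and *Gde5* skKO channels of each array for the *Odc1*, *Amd1*, *Amd2* and *Sms* probes, with 1 line per array. The lines of the *Amd1* and *Amd2* probes fall by about the same factor on both arrays, from 26899 to 12785 and from 25869 to 11198 for the brightest *Amd1* probe.

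The probes named for *Amd1* and *Amd2* gave similar ratios, though which copy they report is uncertain. The 250 bases upstream of the starts of both genes are shown, with those of *Odc1* for the first enzyme of the pathway. The sequences are RefSeq's on GRCm38.p6, 5′ to 3′ along the gene. *Amd1* is chr10:40302189-40302438 on the minus strand, *Amd2* is chr10:35711892-35712141 on the minus strand, and *Odc1* is chr12:17544623-17544872 on the plus strand. Capitals mark matches, on either strand, to GGGCGG (a GC box), to a TATA motif, searched as TATAAA and as TATATA, and to CACGTG (an E-box, the site class of Myc proteins). Matches to CCAAT were searched too, on both strands, and are not in capitals.
Amd1: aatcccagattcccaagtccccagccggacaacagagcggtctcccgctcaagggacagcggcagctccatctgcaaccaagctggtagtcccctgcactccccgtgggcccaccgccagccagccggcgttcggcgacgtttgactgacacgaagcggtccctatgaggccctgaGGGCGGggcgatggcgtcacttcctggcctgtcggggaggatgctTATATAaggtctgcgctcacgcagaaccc
Amd2: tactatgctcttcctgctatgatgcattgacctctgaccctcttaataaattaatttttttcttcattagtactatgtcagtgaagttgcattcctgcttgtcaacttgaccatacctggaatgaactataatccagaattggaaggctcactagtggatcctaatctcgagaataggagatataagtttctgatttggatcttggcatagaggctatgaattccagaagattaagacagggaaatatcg
Odc1: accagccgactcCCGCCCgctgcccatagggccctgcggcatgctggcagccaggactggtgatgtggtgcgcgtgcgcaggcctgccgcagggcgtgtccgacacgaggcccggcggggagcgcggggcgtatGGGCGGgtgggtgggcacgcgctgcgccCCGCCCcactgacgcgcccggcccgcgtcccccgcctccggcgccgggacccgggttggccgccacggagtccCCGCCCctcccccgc
The *Amd1* sequence holds TATATA from position -29 and GGGCGG from position -74, counted back from the start of the gene, and its GC content is 64.4%. The *Amd2* sequence holds CCAAT from position -112 and none of the other motifs, with a GC content of 37.6%, and the longest stretch that the 2 sequences share is 7 bases. The *Odc1* sequence holds 4 GC boxes and has a GC content of 80.0%, against a median of 52.4% over 32851 promoter entries. None of these 3 sequences holds CACGTG. Of all entries, 33.8% hold CCAAT, 32.7% hold a GC box, 15.6% hold TATAAA or TATATA and 6.02% hold CACGTG, so the matches are common ones, and TATATA was added to the search after the *Amd1* sequence was read. A match is a description of letters and was not tested against the ratios.

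The other synthetic enzymes were not called. The brightest *Odc1* probe read 31573 in WT and 25980 in *Gde5* skKO on array 1, and 35314 and 26003 on array 2. Both *Gde5* skKO values lay under both WT values, but the ratio was -0.28 ± 0.21 on array 1, which missed the threshold, and -0.44 ± 0.21 on array 2, which passed it. The mean was -0.36 ± 0.11 (SD, n = 2), with a limma adjusted p of 0.28. The dimmer *Odc1* probe gave 0.06 and -0.40, and so had no shared direction. A probe for a predicted gene similar to ornithine decarboxylase on chromosome 5, *LOC670279*, also looked at after its values were seen, gave -0.41 and -0.03 and was not called. *Srm*, spermidine synthase, gave -0.43 on array 1 and 0.36 on array 2. Its signals were 301 in WT against 223 in *Gde5* skKO on array 1, and 241 against 309 on array 2. With normexp and loess this dim probe gave -0.06 and 0.07.

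For *Sms*, spermine synthase, the call depended on the probe. The brightest read 8279 in WT and 5458 in *Gde5* skKO on array 1, and 6664 and 5359 on array 2. Its ratios were -0.60 ± 0.21 and -0.31 ± 0.21, and the latter, on array 2, did not pass. A second probe, at chrX:152788285-152788344 on the minus strand, read 1618 in both WT channels and 1144 and 1097 in *Gde5* skKO, and its ratios of -0.50 ± 0.21 and -0.56 ± 0.21 passed on both arrays. The third *Sms* probe was not above background in any channel but 1 and went opposite ways on the arrays. In limma's test the brightest *Sms* probe had a log2 ratio of -0.49 and an adjusted p of 0.48. After normexp and loess its ratios were -0.95 on array 1 and -0.04 on array 2.

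**Figure D2:**
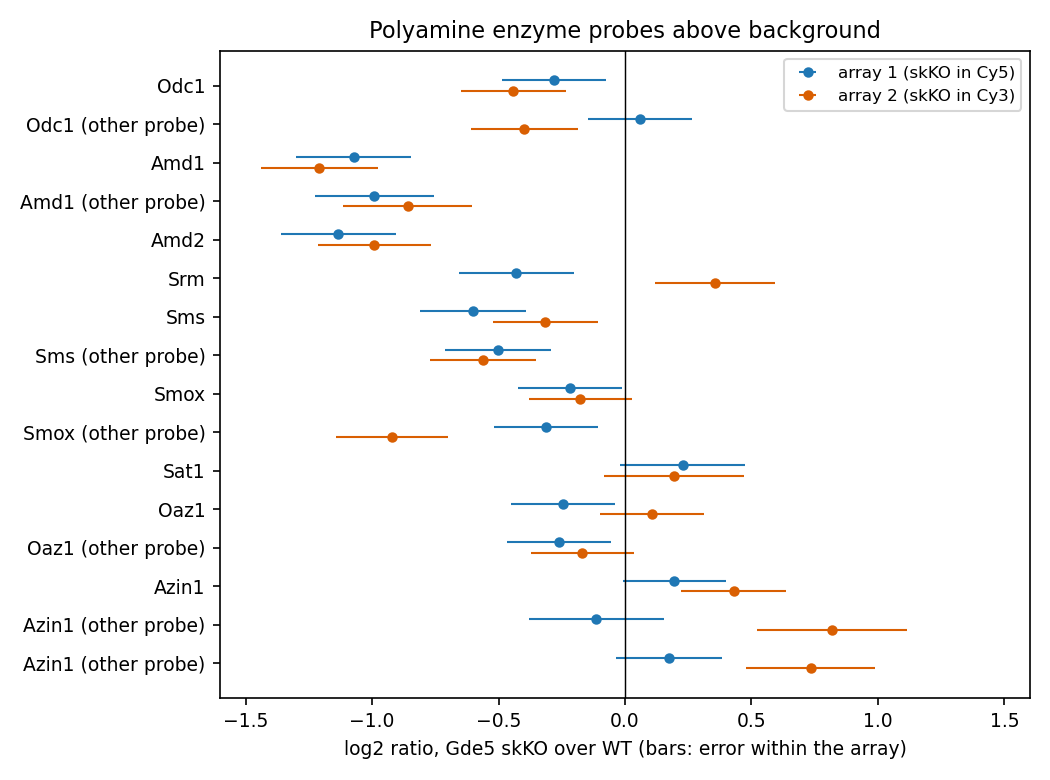
Log2 ratio of *Gde5* skKO over WT (horizontal axis) for each of the 16 probes above background, with array 1 in blue and array 2 in orange and bars for the error within the array. The *Amd1* and *Amd2* points lie between -0.86 and -1.21, and the *Srm* points fall on opposite sides of 0.

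The enzymes that turn polyamines back were not called either. *Smox*, spermine oxidase, gave -0.22 and -0.18 by its brightest probe (mean -0.20 ± 0.03, SD, n = 2), and the signals ran from 17949 to 21865 in WT and from 15429 to 19349 in *Gde5* skKO, so the genotypes overlapped. Its other probe gave -0.31 ± 0.21 and -0.92 ± 0.22, of which the second alone passed, and the mean over both probes was -0.41. *Sat1*, spermidine/spermine acetyltransferase, is induced when polyamines are in excess. Its probe gave 0.23 and 0.19, with signals of 148 and 130 in WT and 173 and 149 in *Gde5* skKO, and the mean of 0.21 fell to 0.13 with normexp and loess and to 0.08 with loess alone. The other *Sat1* probe was not above background on array 2.

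Antizyme and its inhibitor set how long ornithine decarboxylase lasts. *Oaz1*, antizyme, which carries the decarboxylase to the proteasome, gave -0.25 and 0.11 by its brightest probe and -0.26 and -0.17 by the other. *Azin1*, the inhibitor that binds antizyme in its place, gave 0.20 ± 0.21 and 0.43 ± 0.21, of which the second passed. Its signals were 950 and 925 in WT and 1088 and 1246 in *Gde5* skKO, so both *Gde5* skKO values were the higher, but the rule was not met on array 1 and the limma adjusted p was 0.48. Of its 2 dimmer probes, 1 gave -0.11 and 0.82 and the other 0.17 and 0.73, so the size on array 2 was not matched on array 1. *Arg2*, the mitochondrial arginase that supplies ornithine, was not well above background in any channel and has no measured ratio here.

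Counted together, 2 of the 9 measured genes were called lower, against 1.74% of all genes, and none was called higher, against 1.58%. The 2 calls are those of *Amd1* and *Amd2*, whose probes cannot be told apart by copy. In limma at an unadjusted p under 0.05, 4 of the 9 were lower (*Odc1* and *Sms* besides), against 4.29% of all genes, and 1 was higher (*Azin1*), against 4.26%. The limma ratio of *Sms* came from array 1, with -0.95 there and -0.04 on array 2. By probe, 4 of 16 were called lower (25%), against 1.58% of 19081 probes. Of these 4, 3 are the Amd probes, which are not separate measurements, and the other is the second *Sms* probe. The median mean ratio of the 9 genes was -0.20, beside 0.01 over all genes. By direction alone, 5 genes were below 0 on both arrays, 2 above 0 on both, and *Srm* and *Oaz1* went opposite ways, where of all genes 25.3% were below 0 on both, 29.2% above 0 on both and 45.6% opposite. No member was called when the arrays were left unturned, that is, in the direction of the dye, where 215 of 13595 genes were. That is no separate check, since it uses the same p-values. Only *Amd1* and *Amd2* passed on both arrays, and they had already been called in the direction of genotype.

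Against the whole array the Amd ratios were far from the centre. Of 12320 genes with signal in both channels of both arrays, 35 had a mean ratio below that of *Amd1* and 43 below that of *Amd2*, and the fifth percentile was -0.35. The genes nearest to *Amd1* over the 2 ratios were *Akr1c21* (distance 0.108), *Ahsg* (distance 0.120) and *Timd4* (distance 0.138). *Ahsg* encodes a plasma protein made in liver. The likeness rests on 2 arrays only, and for *Akr1c21* and *Timd4* not every channel was above background.

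**Figure D3:**
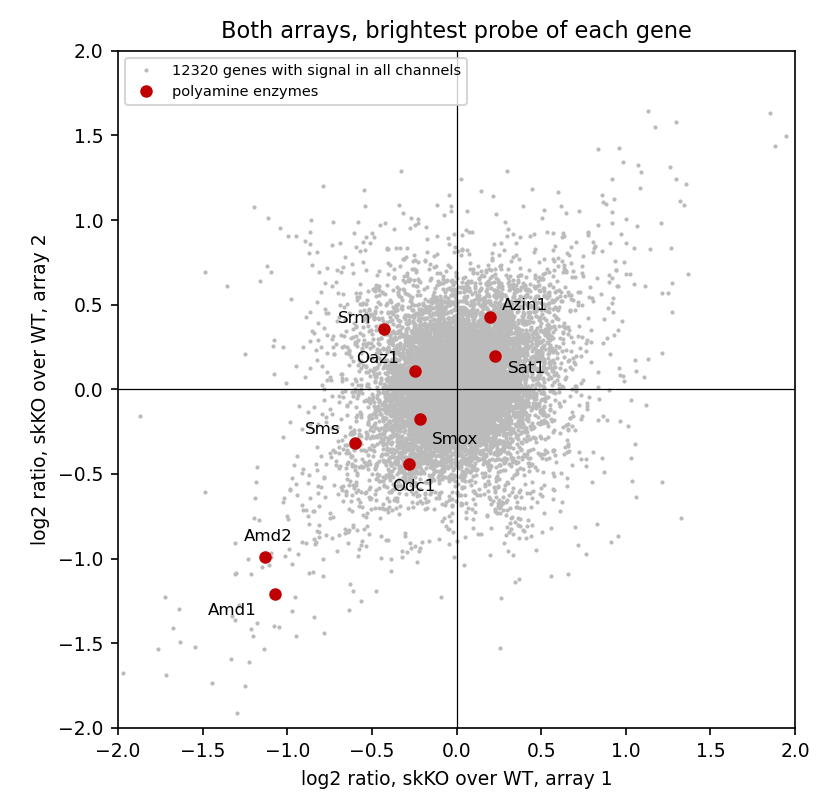
Log2 ratio of *Gde5* skKO over WT on array 1 (horizontal) and array 2 (vertical) for the brightest probe of each gene, with 12312 of the 12320 genes inside the axes in grey and the polyamine enzymes in red. *Amd1* and *Amd2* lie at the lower left, apart from the other 7 enzymes.

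Some markers of another cell type were lower as well. Of 5 adipocyte markers, 4 were called lower (*Adipoq*, *Plin1*, *Cfd* and *Retn*), against 1.74% of all genes. In limma's test *Adipoq* gave -0.76 (adjusted p = 0.019) and *Cfd* -0.82 (adjusted p = 0.012). The dim probes of *Plin1* and *Retn* shrank there to -0.33 (adjusted p = 0.30) and -0.34 (adjusted p = 0.32). The list had a median mean ratio of -0.83, with *Adipoq* lowest at -0.97 and -1.03 and *Fabp4* highest at a mean of 0.05. The summed signal of the list was 42869 to 44210 in WT and 40516 to 42765 in *Gde5* skKO, and *Fabp4*, which gives most of that sum, was not called. All 5 had signal above background. The part of fat cells in the Amd ratios was not tested, and fewer cells of a type cannot be told from less RNA per cell in whole muscle. None of the measured markers of red cells, leukocytes, endothelium, Schwann cells, fibroblasts or liver was called. With 1.74% of all genes called lower and 1.58% higher, that is no result about lists this short. Summed signals of 4 of these lists did not overlap between genotypes. With 2 values per genotype that is weak, and its share over all genes was not counted. The endothelium sum was higher in *Gde5* skKO (6524 to 6943 in WT, 7644 to 7996 in *Gde5* skKO). The sums of red cells (12259 to 12644, 11387 to 11414), leukocytes (640 to 679, 547 to 597) and liver (112 to 154, 76 to 92) were lower. *Kdr* gave most of the endothelium sum, and *Cdh5* of that list gave -0.07 and -0.12. Among leukocyte markers *Ptprc* went opposite ways, at -0.38 and 0.18. The liver sum is that of *Alb* alone, the 1 measured marker of 4, with ratios of -1.03 and -0.28. The part of these cells in the results was not tested.

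The genes around the pathway were largely uncalled. Of a list of 51 genes for arginine and ornithine supply, further antizymes and catabolic enzymes, S-adenosylmethionine metabolism, polyamine transport, hypusination and the other uses of arginine, 37 had signal, 1 was called higher, near the 1.58% of all genes, and none lower, against 1.74%, with a median mean ratio of 0.04. In limma at an unadjusted p under 0.05, 3 were higher and 2 lower, against 4.26% and 4.29% of all genes, so neither count is a result about the list. The called gene was *Gamt*, which makes creatine from guanidinoacetate with S-adenosylmethionine as methyl donor. It read 2707 in WT and 3957 in *Gde5* skKO on array 1, and 3065 and 4535 on array 2. Both *Gde5* skKO values lay above both WT values, with ratios of 0.55 ± 0.21 and 0.57 ± 0.21, but its limma adjusted p was 0.070.

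On the side of ornithine, 5 of 10 supply genes had signal, and their median was -0.24. *Oat*, which makes or uses ornithine in the mitochondrion, gave -0.14 and -0.30. *Slc25a2*, a mitochondrial ornithine carrier, gave -0.07 and -0.76 from a dim probe, with a limma log2 ratio of -0.10. *Arg1*, the liver arginase, was not above background. Among antizymes and catabolic enzymes outside the 10, 5 of 6 had signal, and the median was 0.28. *Oaz2*, a second antizyme, gave -0.12 and 0.02. *Oaz3* gave 0.83 and 0.29, and *Azin2* gave 0.00 and 0.64, both from probes that were not above background in every channel. *Paox*, which oxidises acetylated polyamines, gave -0.12 and -0.16, and *Sat2* gave 0.35 and 0.21.

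In S-adenosylmethionine metabolism, which feeds the decarboxylase, 10 of 12 genes had signal, with a median of -0.01. *Enoph1*, an enzyme of the salvage route that returns the by-product of spermidine and spermine synthesis to methionine, gave -0.45 and -0.86, and missed the rule on array 1. Its WT signal differed between the arrays, 133 on array 1 and 647 on array 2, and the limma log2 ratio was -0.33. *Mtrr*, which reactivates methionine synthase, gave 0.50 and 0.22 from a dim probe, with a limma log2 ratio of 0.11. The 4 genes of hypusination, which uses spermidine to modify the translation factor eIF5A, had a median of 0.04, and the 6 measured transport genes 0.13. The 7 measured users of arginine had a median of 0.15.

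**Figure D4:**
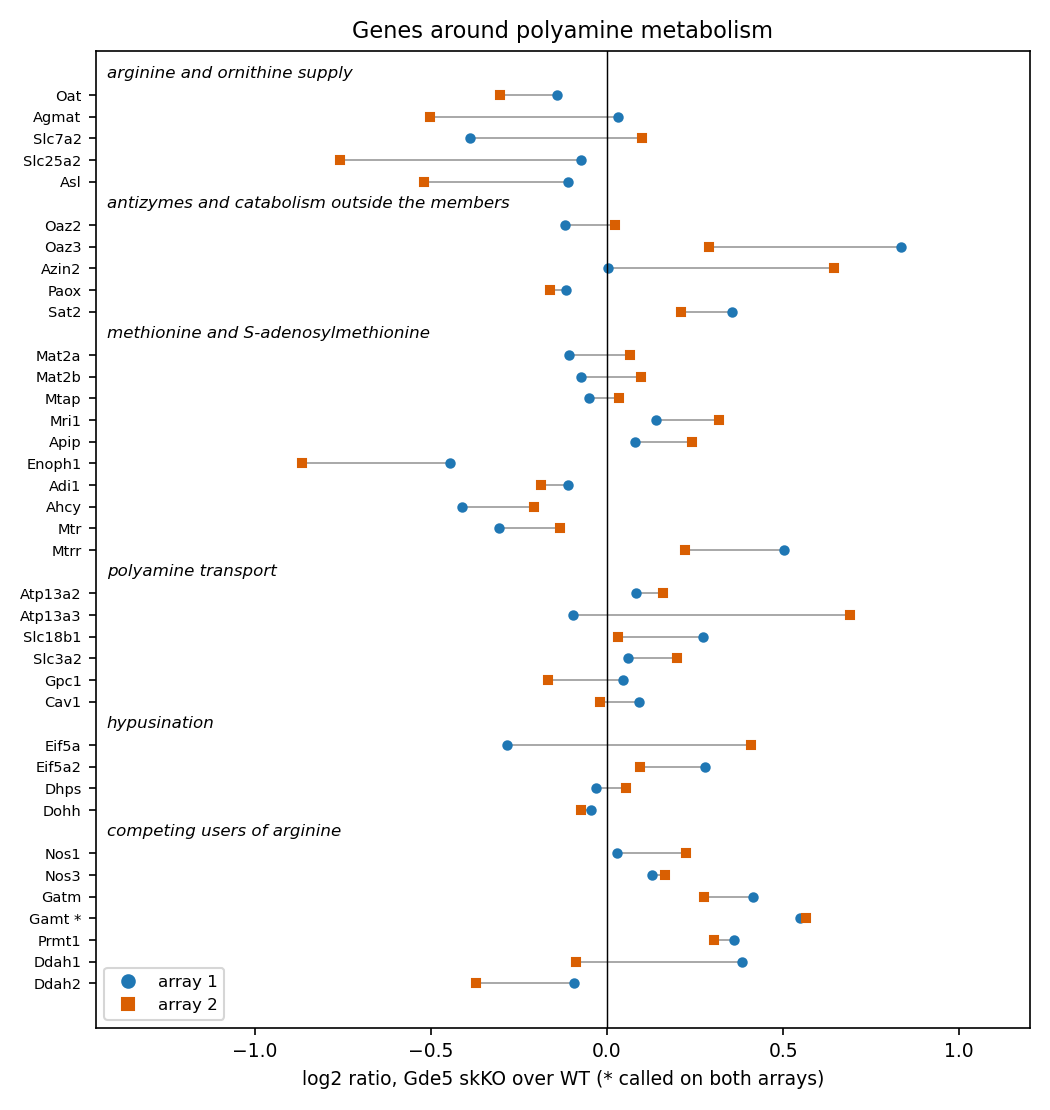
Log2 ratio of *Gde5* skKO over WT (horizontal axis) for the 37 measured genes around polyamine metabolism, grouped by role, with array 1 as circles and array 2 as squares joined by a line. *Gamt*, marked with an asterisk, is the only one called, at 0.55 and 0.57.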

How the data were processed

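GAS muscle RNA of WT and *Gde5* skKO mice was hybridised to 2 dye-swapped Agilent arrays, both on 1 slide and from 1 scan. The authors processed the scans with Feature Extraction 9.5 (9.5.3.1 in the headers). The deposited values for a spot are a background-subtracted, dye-normalized log10 ratio (Cy5 to Cy3), an error of that ratio (a score of the software's error model) and a p-value. The deposited intensity values per channel were used for levels and for limma. The series table holds the same ratios in rounded form.

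Ratios were turned to *Gde5* skKO over WT and converted to log2. Control spots, 164 and 200 spots with outlier marks and 21 and 14 spots whose local background exceeded 1.2 times the signal were left out. A gene was measured when at least 1 channel was well above background on both arrays. Of 41085 probes, 33040 were named through a RefSeq table, by accession, symbol or synonym, and 8045 kept the array's name. Coordinates are the array's, on mm8, and exon or UTR positions were not analysed here. limma 3.58.1 in R 4.3.3 (normexp with offset 50, loess, moderated test) was an alternative. Its moderated test was also run on simulated ratios, but normexp and loess were not. Other alternatives were the methods' t-test, other thresholds, filters and probe rules, and each array alone. With 2 arrays their number limits the precision, and p-values measure spots or the spread between arrays, which may be technical.

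The members, lists and tests were chosen with earlier results of these data known. By rule the text names all 10 members, *Gde5*, called genes of the wider list with *Oaz2*, *Oaz3*, *Azin2*, *Paox*, *Sat2*, *Arg1* and *Oat*, its 3 largest other ratios with signal in all channels, and the 3 genes nearest to *Amd1*.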

Additional observations from a re-analysis of the deposited data

How the results depend on the processing

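With 2 arrays no test here reaches beyond these RNAs, ratios of dim probes depend on the processing, and the Amd copies cannot be separated. *Amd1* and *Amd2* were called lower under every alternative run except the methods' t-test after adjustment, which called 0 members and gave an adjusted p of 0.64 for *Amd1*, 0.49 for *Amd2* and 0.72 for *Gamt*. No mean ratio of a member changed sign, except where an array was left out for *Srm* and *Oaz1* and with normexp and loess for *Srm*, whose mean was near 0.

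Members called lower were 4 with limma unadjusted, 3 with either array left out (with *Odc1* or *Sms* added) and 3 counting any probe (with *Sms* added). Members called higher were 1 (*Azin1*) with limma or the methods' t-test unadjusted, and 0 to 1 with an array left out. The members' ratios that moved by more than the spread between arrays were *Amd1* (-1.03 over all probes), *Smox* (-0.23 with normexp and loess or with loess alone, -0.41 over all probes) and *Sat1* (0.13 with normexp and loess, 0.08 with loess alone).

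All genes called higher and lower were 579 and 583 with limma unadjusted, 40 and 71 adjusted, 477 and 436 with the methods' t-test unadjusted, 0 and 0 adjusted, 108 and 127 at an array p under 0.01, 51 and 76 with the array p adjusted within arrays, 143 higher at 1.5-fold, and 930 to 970 and 723 to 915 with an array left out. Wider genes called higher were 3 with limma unadjusted, 2 with the methods' t-test unadjusted, 0 with either adjusted, 0 with the array p adjusted, 0 at 1.5-fold and 2 to 3 with an array left out. Wider genes called lower were 2 with limma unadjusted and 1 to 4 with an array left out. *Gde5* was -2.33 over all probes and -2.93 by the probe brightest in WT, a choice made after seeing the data, and -0.47 to -0.05 with an array left out. The cause of these shifts was not tested.

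Each array sets both genotypes side by side, so the ratio within an array is the pairing. limma's test used that single group of ratios, and the methods' t-test took the channel values without the pairing. A slide or scan block was not run, since both arrays share 1 slide and 1 scan.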
